A study of Mus musculus with 12 samples.

Results

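Hematopoietic stem cells of 2-month-old mice that carried the receptor IL27RA on their surface were compared with those that did not, across all measured genes. The comparison uses 6 of the 12 libraries of the series, 3 IL27RA+ and 3 IL27RA-, as named by their labels. The table held 20457 genes after 1 damaged line and 15 repeated lines were removed. Of these, 13134 reached 10 normalized counts in at least 3 of the 6 libraries and were tested. Both groups were bone marrow cells of C57BL/6 mice with no treatment, deletion or transgene named in the labels, and their labels differ only in the sign of IL27RA. Each library was made from 50 cells sorted by flow cytometry and amplified by Smart-Seq2, which copies whole transcripts and adds no molecular identifiers. The other 6 libraries, from mice of 28 months, entered only the estimate of the spread and the test of whether the difference depended on age. The surface markers of the stem cell gate are not stated in the labels, which also do not say whether the replicates came from separate mice. The p-values therefore measure only how these libraries vary, and that variation may be technical.

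IL27RA pairs with the shared receptor chain gp130, encoded by Il6st, to bind interleukin 27, a cytokine built from the products of Il27 and Ebi3. The receptor acts through Janus kinases and transcription factors of the STAT family, and it is best known for tuning T cell responses. Hematopoietic stem cells supply the blood through a graded series of progenitors, and a subset of them expresses platelet genes such as Vwf.

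The IL27RA- libraries held 19085252 to 24153167 reads in genes and the IL27RA+ libraries 11669083 to 16480943, so every IL27RA- library was the deeper. A read was found in 13509 to 15403 genes of the IL27RA- libraries and in 14723 to 15955 genes of the IL27RA+ libraries. Correlations of log2 profiles across genes were 0.876 to 0.901 within a group and 0.859 to 0.920 between groups. The libraries therefore did not separate by the sort on all genes. Values below are normalized counts, which are reads divided by the size factor of the library, and they are given in the order of replicates 1, 2 and 3. A floor of 3 reads corresponded to 1.93 to 3.76 normalized counts. Differences are IL27RA+ minus IL27RA- on the scale log2(normalized count + 1), each with its standard error, which understates the change of low genes. Adjusted p-values are Benjamini-Hochberg values of limma over all 13134 genes.

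The mRNA of the sorted receptor did not follow the sort. Il27ra read 1418, 711 and 1564 normalized counts in the IL27RA- libraries and 887, 1253 and 1122 in the IL27RA+ libraries. The groups overlapped, and both the lowest and the highest library were IL27RA-. The difference was -0.11 ± 0.32, with a 95% interval from -0.80 to 0.57. An exact two-sided permutation test over the 6 libraries gave p = 0.8, where the smallest p that 3 against 3 libraries allow is 0.1. The surface protein was not measured in these files.

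The genes around this receptor were lower more often than higher in IL27RA+ cells, with no single gene past the threshold. Of 29 listed genes of IL27 receptor signalling 27 were tested, 9 differences were positive and 18 negative, and the median was -0.19 against 0.03 for all tested genes. Il6st, the partner chain, read 1118, 971 and 770.4 in IL27RA- and 491, 370.4 and 369.9 in IL27RA+ libraries. Every IL27RA+ library lay below every IL27RA- library, with a fitted difference of -1.21 ± 0.82 and adjusted p = 0.731. In all, 6 listed genes lay lower in every IL27RA+ library and 0 lay higher, where among all tested genes 658 (5.01%) lay lower and 648 (4.93%) higher without overlap. Ets1, a transcription factor of lymphoid and endothelial cells, read 986, 539.6 and 790.4 against 289.5, 112 and 408. Cish, a feedback inhibitor induced by STAT5, read 5717, 4218 and 2846 against 2622, 2494 and 1718. Stat4 and Stat2, both signal transducers, differed by -0.76 ± 0.31 and -0.35 ± 0.32, and the sixth gene was Il11ra1, the receptor for interleukin 11. Both cytokine subunits were read in all 6 libraries, Ebi3 at 1506, 1826 and 1566 against 1551, 2307 and 2094 and Il27 at 72.4, 219.7 and 99.8 against 136, 411 and 30.1.

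**Figure D1:**
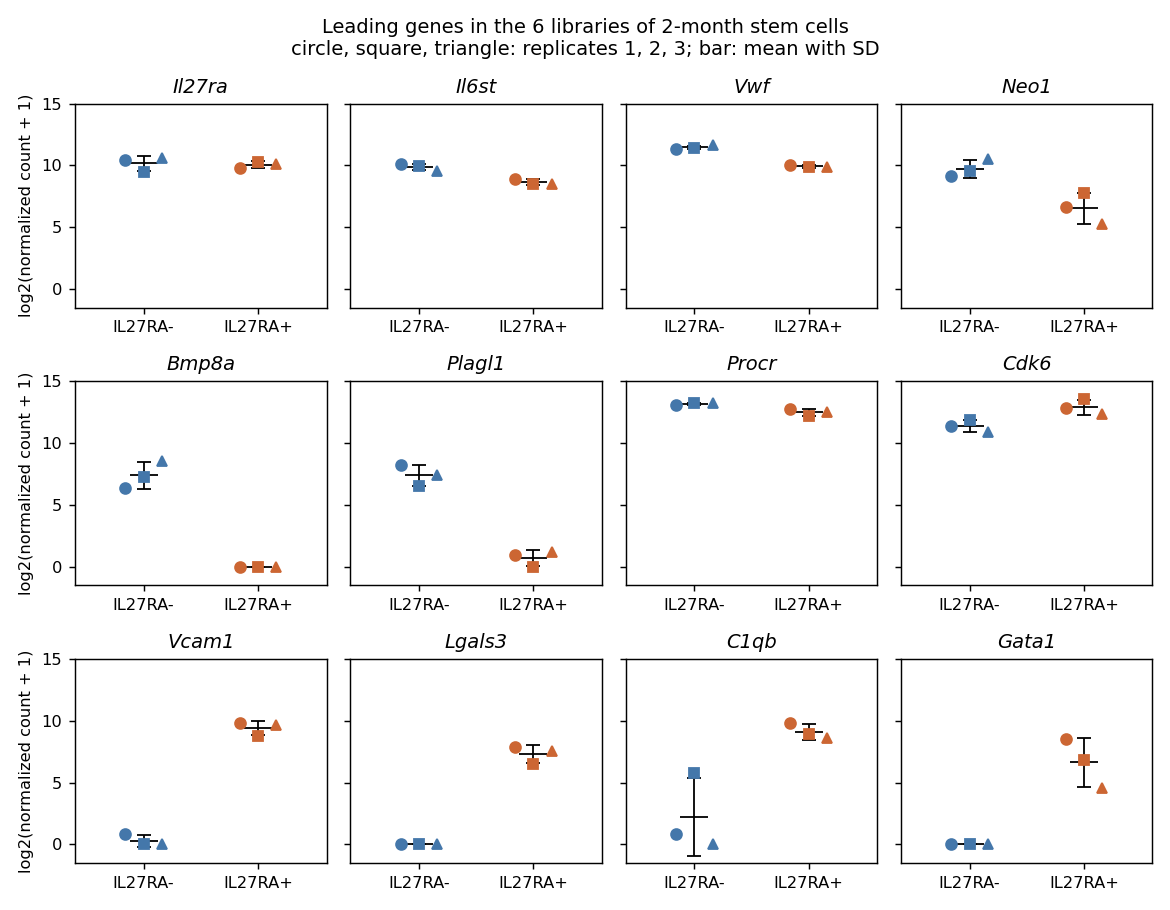
Normalized counts of 12 genes on a log2 axis (normalized count + 1) in the 3 IL27RA- (blue) and 3 IL27RA+ (orange) libraries of 2-month mice, with the mean and SD of each group. Il27ra overlaps between groups, Vwf, Neo1, Bmp8a and Plagl1 lie lower in every IL27RA+ library, and Vcam1, Lgals3 and Gata1 have at most 1 read in the IL27RA- libraries together.

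Over all genes, 3 of 13134 (0.0228%) passed the threshold, 1 higher and 2 lower in IL27RA+ cells. Vcam1 was the higher gene, and Vwf was among the lower. At an unadjusted p under 0.05 there were 1077 genes (8.20%), 585 higher and 492 lower. The median standard error was 0.53 and the median absolute difference 0.44. Standard errors had a median of 0.30 for genes over 1000 normalized counts and 1.63 for genes under 50, so small differences of low genes were not detectable in these libraries. A fit of the 6 young libraries alone called 0 genes with 675 at an unadjusted p under 0.05, and limma called 0 when any 1 of the old IL27RA- libraries was left out, with 986 to 1143. Voom on the recovered reads and weights for the libraries also called 0, with 1185 and 766 genes at an unadjusted p under 0.05.

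**Figure D2:**
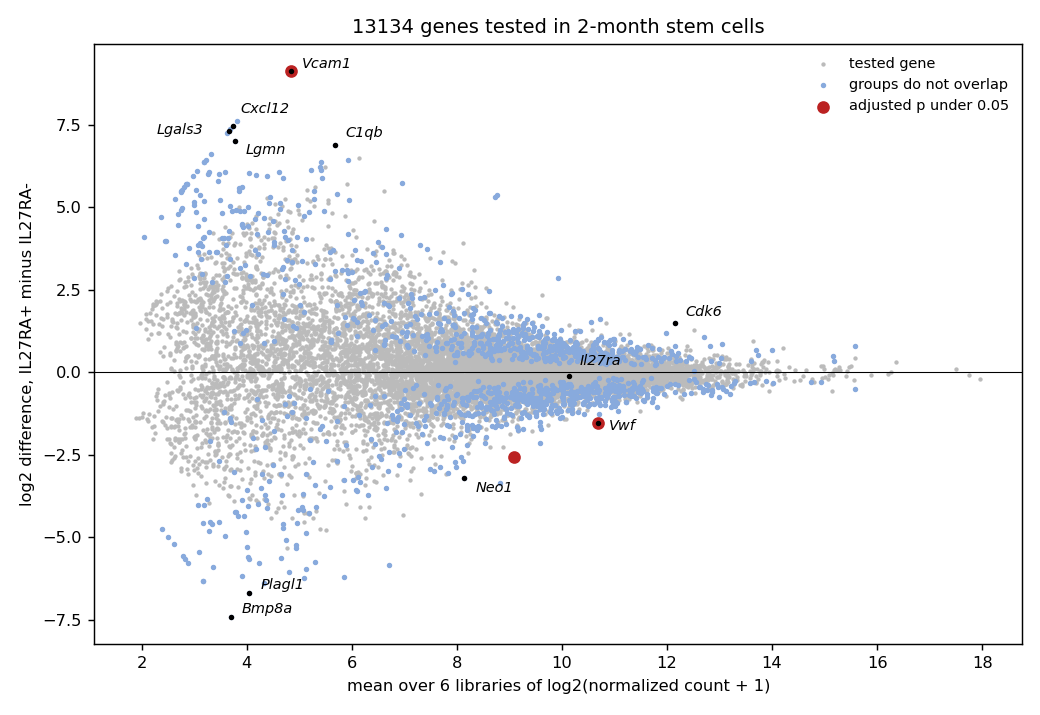
Difference of each of 13134 tested genes (vertical axis, log2, IL27RA+ minus IL27RA-) against its mean level over the 6 libraries (horizontal axis, log2 of normalized count + 1). Blue points are genes whose groups do not overlap, and the 3 red points are the genes past the threshold, with Vcam1 and Vwf labelled.

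Vwf, the clotting factor of platelets and endothelium and a marker of platelet-primed stem cells, fell in IL27RA+ cells. It read 2601, 2676 and 3179 against 1062, 939.7 and 924, with narrow groups that were far apart. The difference was -1.53 ± 0.22 with adjusted p = 0.0365. Without IL27RA- replicate 3 or any 1 of the IL27RA+ libraries the adjusted p exceeded the threshold, while the difference stayed between -1.59 and -1.44 in every fit that left out 1 young library.

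Vcam1, the adhesion molecule that binds the integrin alpha 4 beta 1, rose in IL27RA+ cells. It had 1 read in the 3 IL27RA- libraries together and 1982 in the IL27RA+ libraries. The normalized counts were 0.80, 0 and 0 against 916, 434 and 785, with a fitted difference of 9.13 ± 1.28 and adjusted p = 0.0314. The ratio of reads per size factor was 3042, with a 95% interval of 545 to 120211 that covers counting error only. Leaving out IL27RA- replicate 3 or any 1 of the IL27RA+ libraries lost the call, while the difference stayed between 8.91 and 9.45 in every fit that left out 1 young library.

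Vcam1 was one of many macrophage genes that lay higher in IL27RA+ cells. The macrophage list held 31 genes of the table. Of these, 27 had a positive difference of means, 3 a negative one and 1 no read, and 16 lay higher in every IL27RA+ library while 0 lay lower. Among the 22 tested members 15 lay higher without overlap, where of all tested genes 4.93% lay higher and 5.01% lower. Of the 22 that were tested 1 was called. The filter was passed by 5 of the 22 only through the IL27RA+ libraries, which fixed them as higher without overlap. Both the 15 and the 16 include these 5. Neither these counts nor the median of 4.79 over the tested members is therefore independent evidence of a difference. Over all 31 the median was 3.85. The summed normalized counts of the list were 8884 to 11802 in the IL27RA- and 13855 to 19193 in the IL27RA+ libraries.

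Several macrophage genes were at or near 0 in IL27RA- libraries. C1qb, a chain of the first complement component, read 0.80, 55.1 and 0 against 923, 478 and 390, and C1qa and C1qc had the same order with 66.9, 0 and 68.9 against 999, 812 and 914 and 3.98, 55.8 and 0 against 1143, 265 and 597. All IL27RA+ libraries lay above all IL27RA- libraries for the 3 chains, with adjusted p of 0.179 for C1qb, 0.368 for C1qa and 0.225 for C1qc. Lgals3, which encodes galectin-3, had 0 reads in IL27RA- libraries and 232, 90.9 and 189 normalized counts in IL27RA+ libraries, at least 79.3-fold higher against a floor of 3 reads per library (adjusted p = 0.0596). Lgmn, a lysosomal protease, read 0, 0.72 and 0 against 201, 119 and 150.5 (adjusted p = 0.0596). Fcna, a lectin made by macrophages that was not on the list, had 0 reads in IL27RA- libraries and 109, 65.9 and 89.0 normalized counts in IL27RA+ libraries.

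Hmox1, Slc40a1, Cd163 and Maf of the macrophage list had the same order. Hmox1, which breaks down heme, read 199.8, 547 and 420.3 against 3432, 1660.2 and 3162, and its difference was 2.87 ± 0.66 (adjusted p = 0.233). Slc40a1, the iron exporter, read 113, 0 and 0 against 525, 267 and 329.8, and Cd163, the receptor for hemoglobin bound to haptoglobin, 107, 0 and 102 against 588, 439 and 361. Within the IL27RA- group Slc40a1 had 0 reads in replicates 2 and 3, and Cd163 had 0 in replicate 2. The remaining IL27RA- values of both genes lay between 0 and the lowest IL27RA+ value. Maf, a transcription factor of resident macrophages, read 103, 8.59 and 0 against 656, 197 and 410.1.

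Not every macrophage gene took part. Apoe was high in all 6 libraries, at 9307, 6441 and 7419.8 against 6379.6, 6071 and 6895, and Csf1r overlapped between groups at 271, 423 and 193 against 301, 316 and 586. Vsig4 had no read, Marco at most 1.43 normalized counts and Trem2 at most 9.09 in any library. Emr1, which encodes F4/80, had 0 reads in all IL27RA- libraries and 35.7, 0 and 94.1 normalized counts in IL27RA+ libraries, so it too was absent from 1 IL27RA+ library. In bulk libraries of 50 cells a few cells of another type and a low level in every cell cannot be told apart, and the part of such cells in these differences was not tested.

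**Figure D3:**
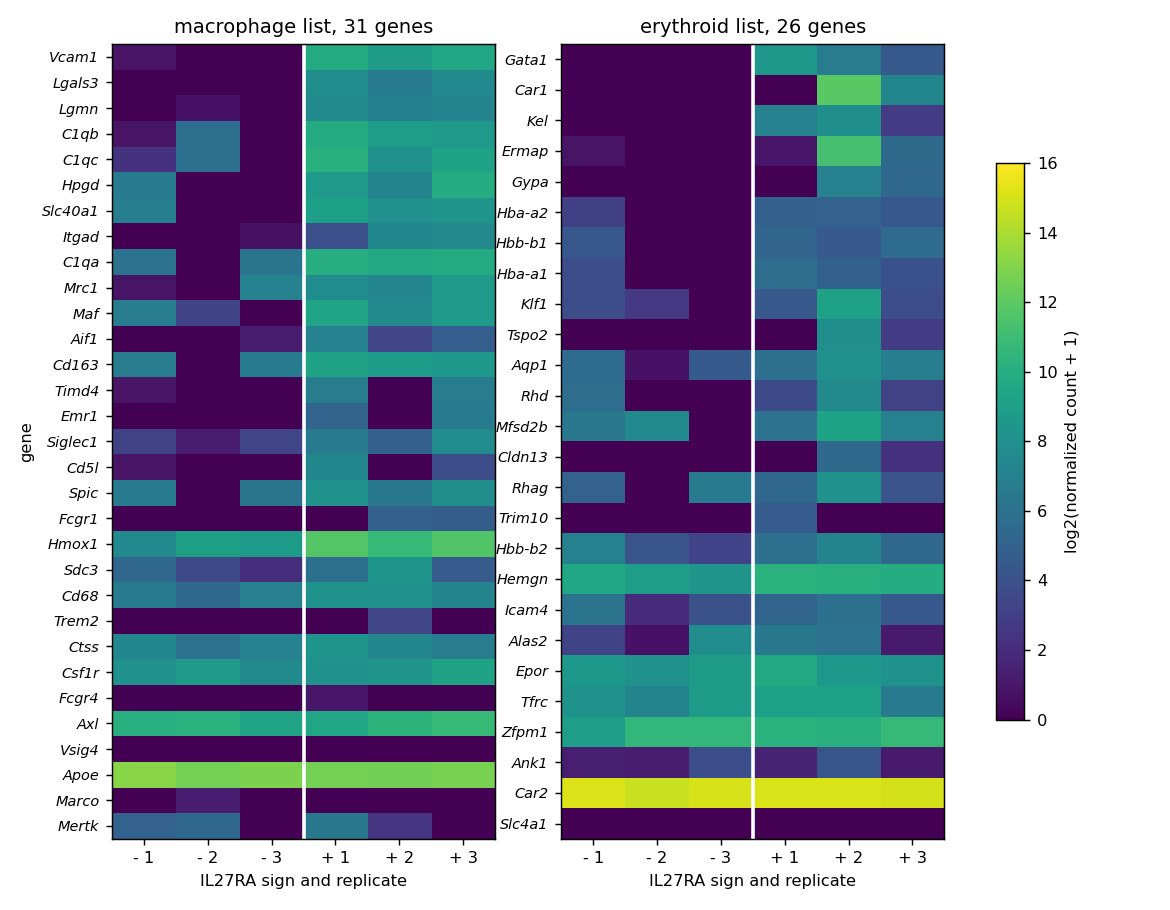
Log2(normalized count + 1) of the 31 macrophage genes (left) and 26 erythroid genes (right) in each of the 6 libraries, ordered by the difference of group means. Of the 31 macrophage genes 16 have a higher value in every IL27RA+ column than in any IL27RA- column. The highest erythroid values are in IL27RA+ replicate 2.

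Red cell genes had higher means in IL27RA+ cells, but most of them, and their summed level, overlapped between groups. Of 26 listed genes 25 had a positive difference of means and 1 had no read. In every IL27RA+ library 8 of the 26 lay higher and 0 lower. Among the 17 tested these counts were 6 and 0, against 4.93% and 5.01% of all tested genes, and 0 were called. The filter had fixed 2 of the 6 as higher without overlap. The summed normalized counts were 38882, 28729 and 36302 in IL27RA- and 39325, 46910.2 and 35833 in IL27RA+ libraries, so IL27RA+ replicate 3 was below IL27RA- replicates 1 and 3. Gata1, the master regulator of red cell and megakaryocyte development, had 0 reads in IL27RA- libraries and 369, 110.2 and 22.6 normalized counts in IL27RA+ libraries (adjusted p = 0.399). Hemgn, which is expressed in stem cells and in red cell precursors, read 775, 495 and 329.5 against 1214, 1074 and 959. IL27RA+ replicate 2 stood apart with 3812 normalized counts of Car1, 2444 of Ermap and 570.4 of Klf1, where the other IL27RA+ libraries held at most 161.8, 45.2 and 21.6. The median difference of the 17 tested genes, 2 of which passed the filter only through the IL27RA+ libraries, was 2.02. It was 1.10 without that library and 1.09 without IL27RA- replicate 2. Globin genes were low, with Hba-a2 at 7.16, 0 and 0 against 29.1, 31.8 and 20.1, and near-identical copies make single globin genes uncertain.

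Markers of granulocytes and monocytes ranged from no read to high levels in both groups. Of 32 listed genes 4 had no read in any library and 16 were tested, 4 of them only through the IL27RA+ libraries. In all, 7 of the 32 lay higher in every IL27RA+ library and 0 lay lower. Among the 16 tested these counts were 5 and 0, against 4.93% and 5.01% of all tested genes. The filter had fixed 4 of the 5 as higher without overlap, so the count is no independent evidence of a difference. No gene of the list was called. Mpo, the granule enzyme of early myeloid cells, had 0 reads in IL27RA- libraries and 27.3, 101 and 79.0 normalized counts in IL27RA+ libraries, at least 32.1-fold higher (adjusted p = 0.225). Hp, which encodes haptoglobin, read 0 against 34.8, 64.8 and 48.9, and Fcgr3, an Fc receptor with close paralogs, 0 against 89.3, 36.4 and 169. Elane, Lcn2 and Cebpa had no read in any of the 6 libraries, while Lyz2 was high in all of them at 13168, 11053 and 13546 against 16109, 10694 and 13704. Prtn3, a granule protease, was also high throughout, at 3566, 4435 and 4191 against 3779.6, 4395 and 5140.4.

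Stromal and endothelial genes lay in both directions. Of 27 listed genes 15 were tested, 2 of them only through the IL27RA+ libraries, with 7 positive and 8 negative differences, a median of -0.06 and 0 called. Cxcl12, the niche chemokine that holds stem cells in the marrow, had 0 reads in IL27RA- libraries and 409, 81.8 and 167 normalized counts in IL27RA+ libraries, at least 102-fold higher (adjusted p = 0.0919). Sparc, a matrix protein, read 0 against 51.7, 44.3 and 57.7, while the collagen gene Col3a1 had at most 2.51 normalized counts. Egfl7, an endothelial secreted protein, lay lower in every IL27RA+ library, at 1296, 1913 and 1632 against 759, 1148 and 1072 (adjusted p = 0.613). Col1a2, a collagen gene, overlapped at 14.3, 221 and 368 against 0.94, 11.4 and 22.6. Cpa3, a mast cell protease also found in early progenitors, read 2.39, 5.72 and 0 against 38.5, 80.7 and 242.

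Stem cell genes were read at high levels in both groups. All 45 listed genes of stem cell identity were tested and had a read in every library, and the summed level was 248532 to 273519 normalized counts in IL27RA- and 217901 to 225832 in IL27RA+ libraries. Cd48, which stem cells lack, stood at 0 in the IL27RA- libraries and 2.82, 7.95 and 0 in the IL27RA+ libraries. Within the list 31 differences were negative and 14 positive, with a median of -0.15 and 0 genes called. Lower without overlap were 6 genes, of which Procr, the endothelial protein C receptor EPCR used to mark stem cells, read 8703, 9579 and 9582 against 7069, 4654 and 5734 (adjusted p = 0.321). Eng, a coreceptor for TGF-beta family ligands, read 8982, 10347 and 12460.1 against 6172, 7299.6 and 5583 (adjusted p = 0.321). Txnip, Mecom and Gata3 were also lower, with differences from -0.52 to -0.42. Higher without overlap were Hlf at 0.28 ± 0.20 and Runx1 at 0.47 ± 0.21, both transcription factors of stem cells. Of all tested genes 5.01% lay lower and 4.93% higher without overlap, so 2 of 45 higher genes is near the share over all genes.

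Beyond Vwf, platelet genes lay in both directions. Of 32 tested genes, of which Ppbp passed the filter only through the IL27RA+ libraries, 17 differences were positive and 15 negative. Without overlap 7 lay lower and 2 higher, against 5.01% and 4.93% of all tested genes, and Vwf was the one call. The filter had fixed Ppbp as higher without overlap. Clu, which encodes clusterin, read 2125, 1056 and 1875 against 685, 134 and 518, and Mmrn1, a platelet and endothelial matrix protein, 9195, 7916 and 9771 against 5694, 6003 and 6842. Every IL27RA+ library lay below every IL27RA- library for both, with adjusted p of 0.233 and 0.432. Treml1 and Trpc6 had the same order, with differences of -1.31 ± 0.55 and -0.69 ± 0.34. Ppbp, the platelet basic protein, went the other way, with 0 reads in IL27RA- libraries and 56.4, 44.3 and 53.9 normalized counts in IL27RA+ libraries, and Rap1b differed by 0.52 ± 0.26.

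Several of the lower genes are also known to increase in stem cells of aged mice. Of 34 tested genes on that list 7 lay lower in every IL27RA+ library and 0 lay higher, against 5.01% and 4.93% of all tested genes. Differences were negative for 21 and positive for 13, and the median was -0.08. Neo1, a receptor for netrins and repulsive guidance molecules, read 554, 741 and 1504 against 97.8, 214 and 37.6, with a difference of -3.19 ± 0.59 and adjusted p = 0.112. Clca1 read 755, 565 and 319.9 against 86.5, 301 and 166, and Ptger4, a receptor for prostaglandin E2, 1633, 1557 and 1240.3 against 951, 608 and 410.1. Tm4sf1 differed by -2.67 ± 0.91. Selp, the platelet and endothelial selectin whose mRNA is a common mark of aged stem cells, overlapped at 3.18, 7.16 and 584 against 147, 201 and 263, with IL27RA- replicate 3 as the highest library.

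Genes of early progenitors leaned towards IL27RA+ cells. Of 14 tested genes, of which Mpo passed the filter only through the IL27RA+ libraries, 11 differences were positive and 3 negative. Without overlap 4 lay higher and 0 lower, against 4.93% and 5.01% of all tested genes, 0 were called, and the median was 0.78. The filter had fixed Mpo as higher without overlap. Cdk6, the kinase that controls exit from quiescence, read 2731, 3791 and 1921 against 7136, 11782 and 5238. Its highest IL27RA- library was below its lowest IL27RA+ library, with a difference of 1.49 ± 0.33 and adjusted p = 0.225. Cd37, a tetraspanin of blood cells, read 672, 1342 and 1069.7 against 1416, 1798 and 1606. Flt3, the cytokine receptor gained as stem cells become multipotent progenitors, overlapped at 104, 438 and 95.3 against 459.6, 903 and 295. Ccnd1, the cyclin partner of Cdk6, lay in the opposite direction at 1274, 1047 and 1388 against 379.8, 358 and 972.

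Growth factor and imprinted genes leaned towards IL27RA- cells. Of 27 tested genes, among them Plagl1, which passed the filter only through the IL27RA- libraries, 20 differences were negative and 7 positive. Without overlap 7 lay lower and 0 higher, against 5.01% and 4.93% of all tested genes, and 0 were called. The filter had fixed Plagl1 as lower without overlap. Over all 30 listed genes 22 differences of means were negative and 8 positive. The median of the tested genes was -0.48, but -0.16 without IL27RA+ replicate 1, -0.21 without IL27RA- replicate 2 and -0.24 without IL27RA+ replicate 3. Plagl1, an imprinted zinc finger gene, read 303, 90.2 and 169 against 0.94, 0 and 1.25, with 769 reads in the IL27RA- and 2 in the IL27RA+ libraries (adjusted p = 0.216). H19, an imprinted long noncoding RNA, read 376, 1156 and 280 against 140.1, 1.14 and 0. Igf1r, the receptor of insulin-like growth factor, read 1356, 1876 and 2561 against 791, 1258 and 913, and its ligand Igf1 603, 801 and 1039 against 459, 339 and 235. Pik3r1, the regulatory subunit of PI3 kinase, differed by -0.64 ± 0.22.

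Integrin genes were split. Itga4, the alpha chain that binds Vcam1, read 2835, 3978 and 3573 against 4586, 8661 and 5354 and lay higher in every IL27RA+ library (adjusted p = 0.507). Itga5, the fibronectin receptor chain, read 1528, 3911 and 2889 against 1121, 911 and 1194 and lay lower in every IL27RA+ library (adjusted p = 0.381). Rac2, a GTPase of blood cell migration, also lay lower, at -0.51 ± 0.20. Over the 31 tested adhesion and homing genes 13 differences were positive and 18 negative, with a median of -0.03.

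Some genes were read in 1 group and not at all in the other. There were 21 genes (0.16%), 4 of them predicted, with 0 reads in every IL27RA- library and at least 10 normalized counts in every IL27RA+ library. Besides those named above they included Ibsp, the bone sialoprotein, at 73.3, 523 and 115 normalized counts, and Arsg, a lysosomal sulfatase, at 43.2, 398 and 196. The reverse held for 9 genes (0.0685%), 2 of them predicted, although the IL27RA+ libraries were the shallower. Bmp8a, a ligand of the bone morphogenetic protein family, read 81.2, 155 and 375 normalized counts in IL27RA- and 0 in IL27RA+ libraries, at least 61.2-fold lower (adjusted p = 0.0919). Zfp418, a zinc finger gene, read 103, 87.3 and 54.7 against 0. Guca1b, a guanylate cyclase activator, read 35.0, 17.2 and 191, and Zfp423, a zinc finger gene of B cell and adipose development, 75.6, 12.2 and 159.6, against 0. Ahrr, the repressor of the aryl hydrocarbon receptor, read 99.5, 396 and 11.6 against 0. Prss8 and B4galt2 complete the named genes of this kind, at 46.2, 11.4 and 32.2 and 29.4, 25.1 and 62.4 against 0.

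Other genes with small p and no overlap came from unrelated families. Higher in IL27RA+ cells were Zfp462 at 1.59, 0 and 0 against 113, 276 and 21.3 and Pkib, an inhibitor of protein kinase A, at 3.98, 0.72 and 0 against 124, 95.5 and 197. Ccdc157 differed by 2.65 ± 0.56. Lower were Rad51c, a homologous recombination gene, at 97.9, 235 and 86.9 against 0, 4.55 and 0, Slc17a8, a vesicular glutamate transporter, at 423, 387 and 151 against 59.2, 0 and 0, and Meis2, a homeobox gene, at 25.5, 319 and 172 against 0, 1.14 and 5.02. Gadd45g, a stress response gene, and Nrg4, a ligand of the epidermal growth factor family, were lower by larger counts, at 478, 902 and 535 against 137, 298 and 102 and 559, 567 and 369 against 77.1, 134 and 194. Tmem56 differed by -5.29 ± 1.14. None of these passed the threshold, with adjusted p between 0.116 for Zfp462 and 0.233 for Nrg4.

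Cell division genes varied widely within each group. Of 52 tested mitosis genes 50 differences were positive with a median of 2.35, yet none of the 52 had groups without overlap and none was called. The median deviation of these genes from their mean over the 6 libraries was 1.81, -1.76 and -3.62 in the IL27RA- and 2.08, 2.23 and -0.80 in the IL27RA+ libraries. IL27RA- replicate 1 was just below IL27RA+ replicates 1 and 2, and IL27RA+ replicate 3 was between those and the other IL27RA- libraries. Birc5, the survivin gene of dividing cells, read 399, 0 and 0 against 1125, 2686 and 96.6, and Cdca8, of the same chromosomal passenger complex, 762, 0.72 and 1.29 against 946, 1616 and 182. The median of the list was 1.26 to 3.94 when 1 young library was left out. Without IL27RA- replicates 2 and 3 together it was -0.32, which describes the remaining libraries only, since the lowest libraries of the list were removed. The 49 tested DNA replication genes had 28 positive and 21 negative differences, with a median of 0.08.

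**Figure D4:**
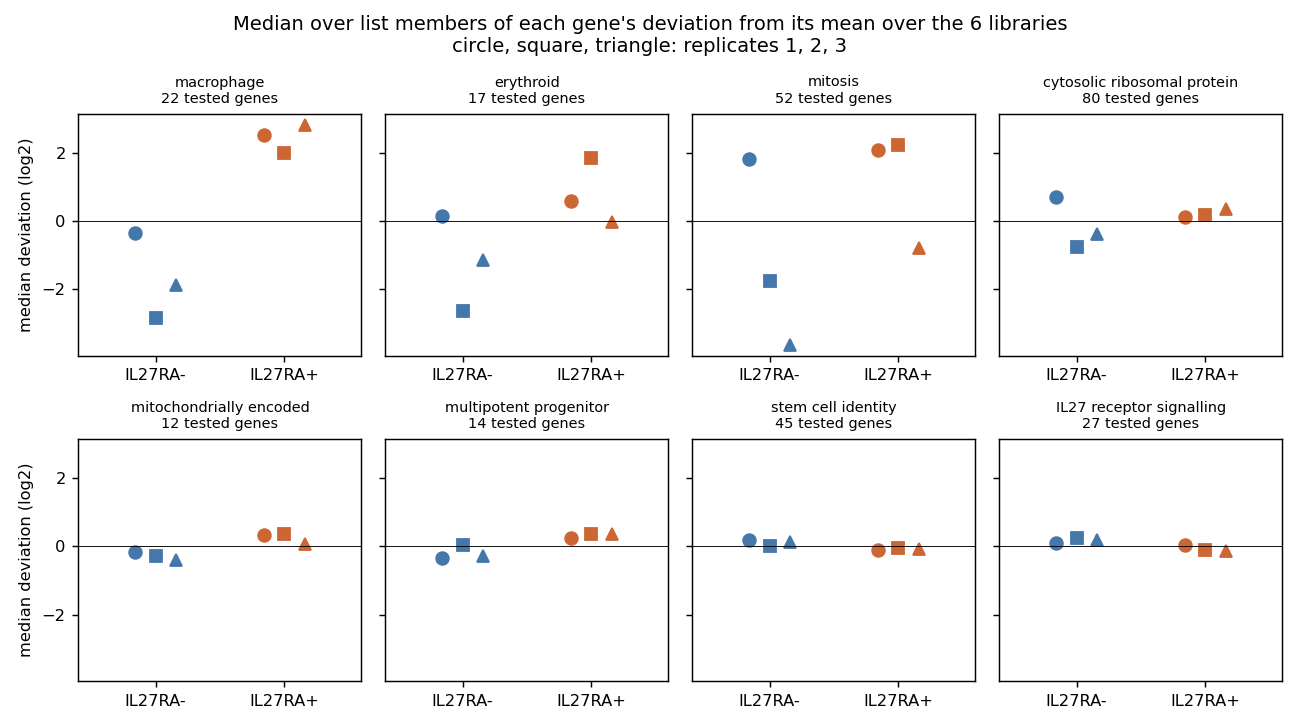
Median deviation of list members from their mean over the 6 libraries (vertical axis, log2) for 8 gene lists, with 1 point per library. The macrophage points separate by group, the mitosis points are high in IL27RA- replicate 1 and IL27RA+ replicates 1 and 2, and the ribosomal protein points are low in IL27RA- replicates 2 and 3.

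IL27RA- replicates 2 and 3 also stood apart in their short transcripts. For the 470 tested genes with a median transcript length under 600 bases the median deviation was -0.32 and -0.33 in IL27RA- replicates 2 and 3 and 0.18 to 0.40 in the other 4 libraries. In the 5134 genes of 2000 to 4000 bases all 6 libraries lay between 0.02 and 0.14. The share of positive differences was 66.0% for the shortest genes and 51.9% over all genes. Cytosolic ribosomal protein genes, with a median length of 776 bases, had 69 of 80 positive differences, 0 without overlap and a median of 0.30. Their median deviation was 0.71, -0.77 and -0.38 in the IL27RA- and 0.13, 0.17 and 0.33 in the IL27RA+ libraries. Rps29 read 2870.4, 70.1 and 204 against 2099.9, 1799 and 1482, and without IL27RA- replicates 2 and 3, its lowest libraries, the median of the list was -0.55. By median transcript length all 3 called genes fell in the band of 2000 to 4000 bases. Such a median can lie below the longest transcript of a gene. All 3 were called when only genes of 1000 bases or more by this measure were tested. That restriction keeps the values of these 3 genes and mainly removes other tests, so it does not check them against the shift of short transcripts.

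**Figure D5:**
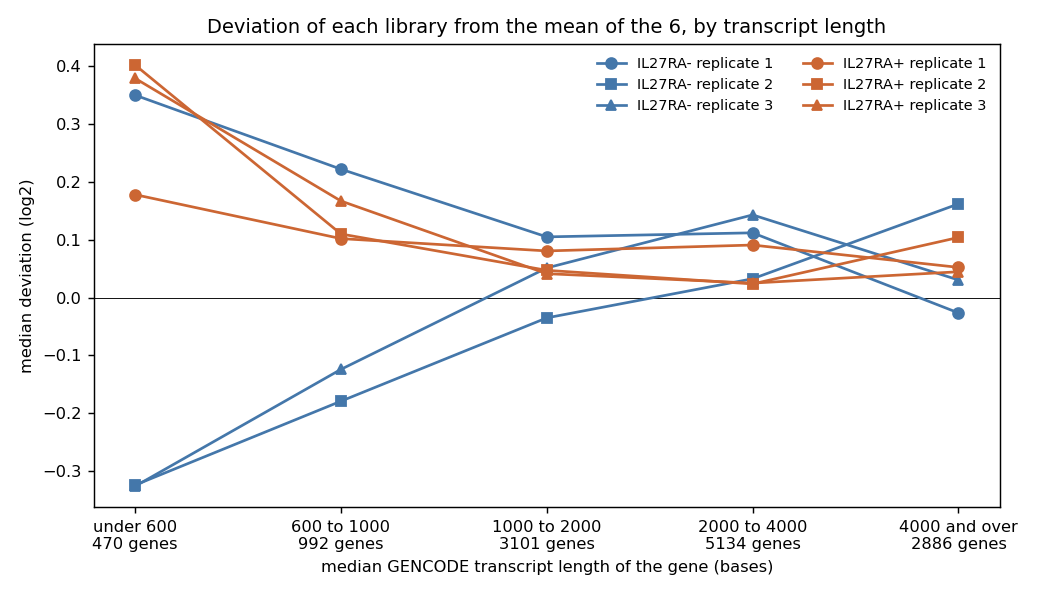
Median deviation of each library from the mean of the 6 (vertical axis, log2) for tested genes in 5 bands of transcript length (horizontal axis, bases), with 1 line per library. IL27RA- replicates 2 and 3 fall to about -0.32 in the shortest band, where the other 4 libraries are at 0.18 to 0.40.

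IL27RA- replicate 1 had the largest effect on the number of calls. Without it 63 genes were called, 56 higher and 7 lower, among them Vcam1 and Vwf. Of the 63, 11 were ribosomal protein genes, 3 were mitosis genes and 4 were macrophage genes, namely Vcam1, Lgals3, Lgmn and Maf. The count was 10 without IL27RA- replicate 2 and 1 without IL27RA+ replicate 2, while the 3 genes called without IL27RA- replicate 3 were not among the 3 of the full fit. Birc5, one of the added genes, had reads in the library left out and none in the other IL27RA- libraries. Across the 6 fits that left out 1 young library, the macrophage median stayed between 3.46 and 5.04, with 20 or 21 of the 22 tested genes positive. These 22 include the 5 that passed the filter only through the IL27RA+ libraries, so this range is no independent evidence of a difference. The IL27 receptor signalling median stayed between -0.26 and -0.14, and the stem cell identity median between -0.28 and -0.17.

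Mitochondrially encoded mRNAs leaned towards IL27RA+ cells. Of 12 tested genes 10 differences were positive and 2 negative, the median was 0.52 and 0 were called. Without overlap 6 lay higher and 0 lower, against 4.93% and 5.01% of all tested genes. mt-Nd2, a subunit of complex I, read 5167, 7838 and 5966 against 10438, 14456 and 9708 (adjusted p = 0.325). mt-Atp6, a subunit of ATP synthase, read 38504, 37564 and 35483 against 73620.1, 83631 and 44197 (adjusted p = 0.368). The share of all reads from mitochondrial genes was 4.01% to 4.58% in IL27RA- and 4.61% to 5.16% in IL27RA+ libraries. The very short mt-Atp8 read 1505, 7.87 and 25.8 against 1339, 1076 and 862 and was low in IL27RA- replicates 2 and 3, as the short nuclear genes were. The share of mitochondrial reads can move with RNA quality, whose part was not tested.

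No gene of the remaining lists was called. Medians were -0.10 for 62 interferon response genes, -0.15 for 33 genes of TNF receptor and NF-kB signalling, -0.08 for 19 MHC class I genes, 0.12 for 11 MHC class II genes and -0.06 for 19 lymphoid priming genes. They were -0.21 for 26 BMP and TGF-beta genes, -0.17 for 35 lysosome and autophagy genes and 0.21 for 79 nuclear genes of the respiratory chain. The listed respiratory chain genes are short, with a median length of 745 bases. Their median difference was 0.09 without IL27RA- replicate 2 and 0.46 without IL27RA- replicate 1. Lists of other blood cells had few tested genes, with medians of 0.61 for 5 T and NK cell genes, -0.33 for 4 dendritic cell genes and -0.14 for 6 B and plasma cell genes. Glycolysis and hypoxia genes had 21 of 31 negative differences with a median of -0.24. Of the 31, 4 lay lower without overlap, against 5.01% of all tested genes.

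The difference between IL27RA+ and IL27RA- cells was not shown to depend on age for any gene. The interaction of sort and age called 0 of 13134 genes (0.0%), with 678 at an unadjusted p under 0.05 and a smallest adjusted p of 0.128, that of Guca1b. It called 6 genes without young IL27RA- replicate 1, 2 without young IL27RA- replicate 3, and 1 gene in each of the fits that dropped young IL27RA+ replicate 1 or old IL27RA- replicate 3. Of the genes named here 18 share exon bases with a gene on the other strand, and Smart-Seq2 does not mark strand. Among them is Vcam1, by 61 bases with a predicted gene.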

How the data were processed

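The authors deposited 1 table of log2(normalized count + 1) per gene and library. Per the submitters' processing notes the tools were DESeq2, HTSeq, TopHat2 2.1.1 and FastQC 0.11.5, whose roles are not stated, and no source used here names the genome build. The deposited log2 values were transformed back, and dividing by the value of 1 read gave whole reads for 100% of values within 0.001 reads. The damaged line leaves 1 cell of 1 deposited column outside the log2 scale (a column held as other, in the authors' file), and it was dropped. Gene names that had been turned into dates were restored for 21 genes. The labels of old IL27RA- replicate 1 disagree on its age, and its title and stated age put it in the old group. Depth was 11669083 to 24153167 reads in genes per young library. Intervals of read ratios and floors hold counting error alone, and the interval of Il27ra is that of limma.

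Genes were fitted in R 4.3.3 with limma 3.58.1, using a trended prior variance, 1 mean for each of 4 groups of 3 libraries, 8 residual and 6.13 prior degrees of freedom, and a threshold of 0.05 on adjusted p. Genes needed 10 normalized counts in at least 3 of the 6 young libraries. Alternatives changed the libraries, filter, pseudocount, scaling, test, depth, weights, block and single replicates. Lists were described by counts and medians with no set test.

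Named genes were Il27ra, every called gene, the 12 genes of smallest p in each direction among those without overlap, up to 8 genes per direction with 0 reads in 1 group, and 4 genes of smallest p per described list, leaving out predicted genes. Other list members were named after their values were seen. A called gene and some list members are not reported here. The comparison and all gene lists were chosen with earlier results of these data known. Transcript lengths are medians over GENCODE transcripts, found for 12583 of 13134 tested genes. Deviations are from the mean of the 6 young libraries.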

Additional observations from a re-analysis of the deposited data

How the results depend on the processing

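The 3 called genes, Vcam1 and Vwf among them, were all called under a filter over all 12 libraries, TMM scaling, thinning to equal depth and transcripts of 1000 bases or more. Counts that differed by more than 1.5 times were 0 with only the 6 young libraries, 8 with no filter and 6 with a pseudocount of 10 (the 3 genes among both), 0 with voom, 0 with library weights, and 6, none of them shared, without young IL27RA- replicates 2 and 3 together. That last setting and the restriction to transcripts of 1000 bases or more were chosen after seeing the data, and the lone IL27RA- library is then assumed to vary like the other groups. Leaving out 1 library at a time gave 0 to 63 calls and, for the interaction with age, 0 to 6. The interaction called 2 genes without young IL27RA- replicates 2 and 3. Equal replicate numbers deviated together by r of 0.11, 0.0224 and 0.0112, so the numbers were not taken as pairs, and IL27RA- replicate 2 correlated best with another number. A replicate block called 0 genes in the 12 libraries and 0 in the 6, with 1312 and 862 at an unadjusted p under 0.05.

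Il27ra ranged from -0.47 to 0.10 when 1 library was left out, and turned positive at 0.03 without young IL27RA- replicate 1, 0.10 without replicate 3 and 0.03 without young IL27RA+ replicate 1. Other genes near 0 that changed sign when 1 library was left out were Il27 (-0.85 to 1.02) and Lyz2 (-0.051 to 0.24). Without young IL27RA- replicates 2 and 3, Cdca8 (-0.22), Rps29 (-0.69) and mt-Atp8 (-0.49) turned negative. The cause was not tested. Of 2217 values of the 90 tested genes named above under these settings 2149 kept their direction and side of the threshold. Only 3 genes were called in the full fit, so most values began uncalled and this count says little about stability. List medians moved by less than the spread between replicates in 744 of 799 values. Standard errors were larger for genes of low counts, where the parts of depth, of the 50-cell input and of amplification cannot be told apart.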
